A study of Mus musculus with 12 samples.

Results

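Rn45s is the single unit of the 45S ribosomal RNA gene that the mm10 mouse genome carries in its assembled sequence, on chromosome 17. Its members here were all CpG rows of a 7501 bp window around that unit, where a row is the cytosine of 1 CpG on 1 strand. The window held 1133 rows covered by at least 10 reads in some library, of 3134555 such rows on the autosomes and chromosome X. In all 12 libraries, 885 of them were covered, of 980547 rows in the series, and each library listed 937 to 1110 of them.

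The assay was reduced representation bisulfite sequencing (RRBS) of genomic DNA. In this assay DNA is cut at CCGG by the enzyme MspI and unmethylated cytosines are read as T after bisulfite treatment. The samples were mixtures of hippocampus and cortex from mice 11 months old. They came from 4 wild-type (Wt) animals, of which 3 were labelled female and 1 male, and from 8 Tg2576 (Tg) animals, of which 4 were labelled female and 4 male. Tg2576 mice carry a transgene for human amyloid precursor protein with a familial Alzheimer's disease mutation under a prion protein promoter, and no other allele or agent was labelled. Cell type markers were not checked, because no expression values were used here. The library labelled Wt male went against its label, with 51.2 reads on chromosome Y for each 1000000 on the autosomes, against 393 to 557 in the 4 Tg libraries labelled male and 51.4 to 168 in the 7 labelled female. The main results that rest on it are therefore also given without it. In each library, the listed autosomal reads numbered 28672864 to 114622252. Libraries also differed in how fast depth fell with the length of the MspI fragment. Autosomal rows in fragments of 160 to under 220 bp had 0.285 times the depth of those in fragments of 40 to under 80 bp in Wt female 2 and 0.569 times in Tg male 3, against 0.709 to 0.882 in the other 10.

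Ribosomal RNA is made from tandem repeats of this gene on several chromosomes, in many more copies than a cell transcribes at one time. RNA polymerase I reads each active copy into a 45S precursor that begins with an external transcribed spacer and goes on with the 18S, 5.8S and 28S RNAs. Copies that are not transcribed are known to carry DNA methylation, and active ones to lack it. Because the assembly holds few copies, reads from all copies pile up on the ones it has, so a level here is an average over copies and over cells. Whether few copies were fully methylated or many were partly so cannot be told apart from counts per row.

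The name Rn45s was not in the mouse annotation used here (GENCODE vM21 and RefSeq for GRCm38.p6), and the unit was divided by the genes annotated there. The non-coding gene Gm26917 (plus strand) started at position 39843013, which was taken as the start of the unit. From there a spacer stretch of 3341 bp ran to the 18S gene Rn18s-rs5 (39846354 to 39848202, plus strand, 1849 bp). RefSeq annotates Rn18s-rs5 as a pseudogene, and it is called the 18S gene here for its place in the unit. A further 1298 bp followed to the end of the window. The window had 607 CpGs, 71 CCGG sites and a GC content of 59.4%. The spacer held 608 of the 885 rows covered in all libraries, the 18S gene 149 and the stretch after it 128. Of the 885, 1 did not lie in a CpG of the reference.

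Below are 5 stretches of the mm10 plus strand, taken from RefSeq's GRCm38.p6 sequence with every CpG in capitals, because the results turn on them. The first holds the edge of the repeat, with 60 bases before the unit, and the others are MspI fragments with the CCGG sites at both ends.
Edge of the repeat, chr17:39842953-39843136: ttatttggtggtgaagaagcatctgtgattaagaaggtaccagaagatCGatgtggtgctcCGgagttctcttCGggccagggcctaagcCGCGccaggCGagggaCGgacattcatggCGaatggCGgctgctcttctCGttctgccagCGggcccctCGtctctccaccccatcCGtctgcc
Fragment of 189 bp with the widest range over animals among those with a mean of at least 1000 reads per row, chr17:39845349-39845541: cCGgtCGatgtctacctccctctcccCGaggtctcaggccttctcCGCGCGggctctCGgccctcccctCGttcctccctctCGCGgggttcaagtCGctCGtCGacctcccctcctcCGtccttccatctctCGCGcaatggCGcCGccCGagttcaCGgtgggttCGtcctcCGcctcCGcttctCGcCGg
Fragment of 79 bp with 6 called rows, chr17:39844898-39844980: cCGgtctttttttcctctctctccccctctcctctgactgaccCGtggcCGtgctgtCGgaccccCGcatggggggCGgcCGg
Fragment of 26 bp with a high level, chr17:39845599-39845628: cCGgcttCGCGgactcctggcttCGccCGg
Fragment of 65 bp with the lowest row, chr17:39848405-39848473: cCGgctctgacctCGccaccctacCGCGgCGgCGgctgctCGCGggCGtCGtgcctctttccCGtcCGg

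Depth differed sharply between the unit and the bases before it. The first row of the unit covered in every library had 1277 to 6739 reads per library. Before position 39843013, 4 rows were listed in 5 libraries in all, with 10 to 18 reads each and levels of 30.8 to 100%. The last of the 4 was at 39842566, and no row lay between it and the unit, so the data do not show where the depth changed. None of the 885 rows lay before the unit, so every value below is one of the unit itself.

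The methylation level of the unit, as methylated reads over all reads at the 885 rows, differed strongly between animals. In the Wt animals it was 14.6%, 16.4% and 13.8% for females 1 to 3, while the library labelled Wt male had 10.4%. Tg females 1 to 4 had 7.74%, 19.3%, 15.3% and 16.4%. In the Tg males it was 12.1%, 14.8%, 10.8% and 14.0%. The highest animal, Tg female 2, was 2.50 times the lowest, Tg female 1, and both belonged to the same group. The autosomal mean level, an unweighted mean over the rows covered in every library, ran from 5.15% to 6.05%. A mean over so many rows levels out differences at single places, so the 2 ranges are not like for like.

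Counting error was a minor part of these differences. The animals' levels rested on 1049568 to 4859242 reads each, and the widest Wilson 95% interval, in Tg female 4, ran from 16.36 to 16.50%. The SD over the 12 animals was 3.14 percentage points, against 0.0233 points from counting alone. RRBS reads without molecular identifiers are not independent molecules, so such intervals cover counting error only.

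**Figure D1:**
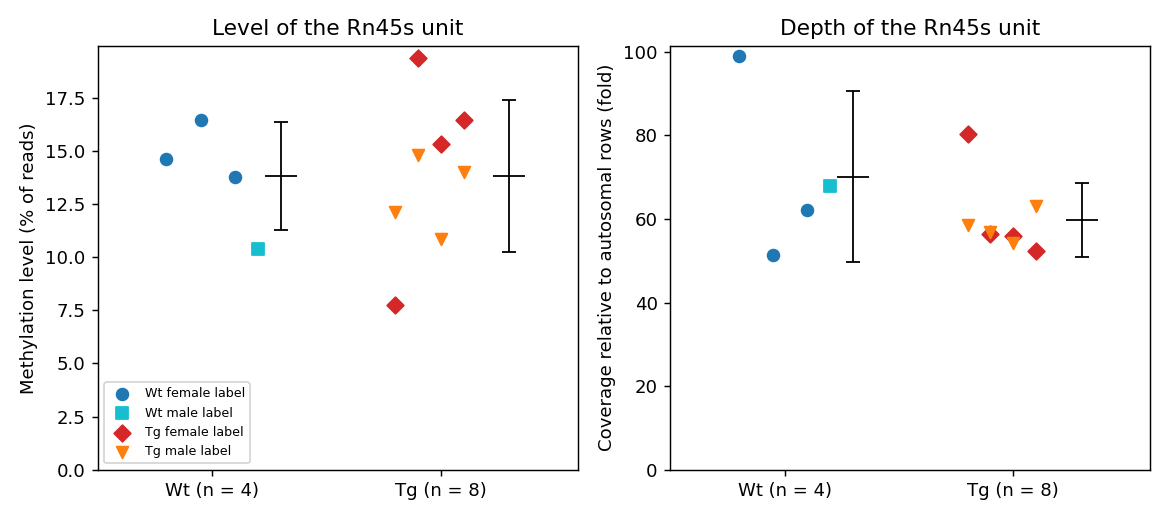
Methylation level of Rn45s in percent of reads (left) and its coverage as a multiple of the autosomal mean (right), 1 point per animal, with the mean and SD of 4 Wt and 8 Tg animals as bars. The lowest and the highest level, 7.74 and 19.3%, were both in Tg females, and the highest coverage, 98.97 times, was in Wt female 1.

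Tg female 1 and Tg female 2 took the outer places along most of the unit. Of 21 windows of 250 bp with at least 5 rows, Tg female 1 was the lowest in 20 and Tg female 2 the highest in 19. Of the 45 predicted MspI fragments with at least 4 rows between their CCGG sites, Tg female 1 was the lowest in 41, Tg female 2 the highest in 32 and Tg female 2 above Tg female 1 in 45. An exception was a fragment of 154 bp in the 18S gene with a mean of 47.7 reads per row, where the level ran from 1.40 to 18.4% and Tg female 1 had 10.2%. The spacer level ran from 7.97 to 19.9% over the animals, the 18S level from 7.65 to 18.9% and that of the stretch after it from 6.71 to 16.96%. Across the 12 animals, Pearson's r of each segment with the whole unit was 0.999, 0.983 and 0.988, as a description, since each segment is part of the unit and shares its libraries.

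Single rows moved with the unit. In the 723 rows with at least 100 reads in every library, the place along the unit accounted for 81.5% of the variance of the levels, the animal for 12.7% and the remainder for 5.80%. The median r of a row with the mean of all other rows was 0.912 over the 12 animals. Tg female 1 had the lowest level in 657 of these rows (90.9%), and Tg female 2 the highest in 495 (68.5%). In the 189 bp fragment printed above, with 23 CpGs inside it and a mean depth of 1397 reads per row, the fragment level was 7.61% in the lowest animal and 24.2% in the highest.

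**Figure D2:**
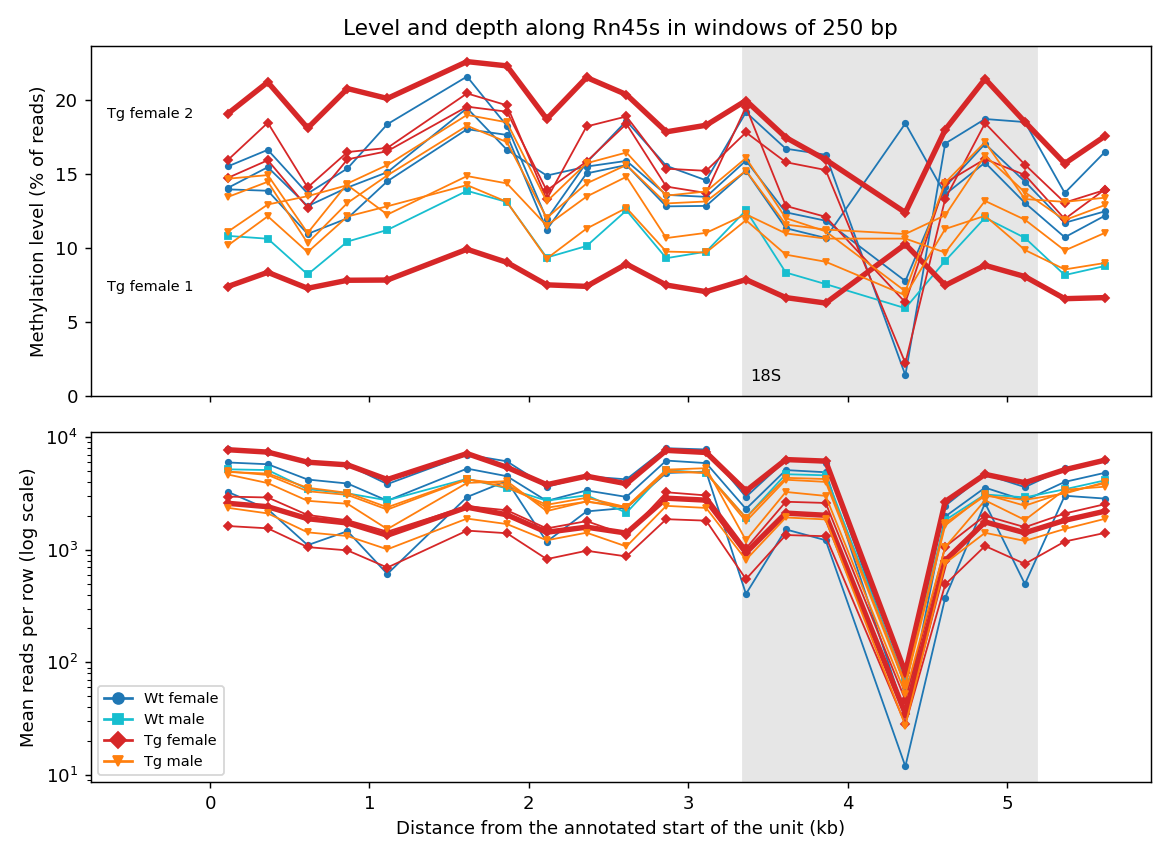
Methylation level in percent of reads (top) and mean reads per row on a log scale (bottom) in windows of 250 bp against the distance from the annotated start of the unit in kb, 1 line per animal, with the 18S gene shaded. Tg female 1 and Tg female 2 (thick lines) form the lower and the upper border in nearly every window, and depth falls to under 100 reads within the 18S gene.

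Levels along the unit were uneven on a finer scale. The median row had a level of 13.2% as the mean over animals, with quartiles of 10.9 and 16.4%, and 21 rows were above 50%. The highest row, 39844767 on the minus strand, was at 91.5% ± 5.07 (SD, n = 12) with 163 to 437 reads per library. It was followed by 39848732 on the minus strand at 88.8% ± 5.76 and 39846639 on the minus strand at 86.8% ± 12.3. Of the 21 rows above 50%, 12 were CpGs inside CCGG, which was 11.5% of the rows of that kind against 1.15% of the others. High rows were also shallow, since 13 of the 21 had fewer than 100 reads in some library and none reached 1000 in all.

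Of the rows with at least 300 reads in every library, the highest was 39845606 on the plus strand, in the 26 bp fragment printed above, with 433 to 2040 reads. Its level was 63.0% ± 6.36 (SD, n = 12), lowest in Tg female 1 with 49.2% and highest in Tg female 4 with 71.2%. At the other end, row 39848454 on the plus strand, in the 65 bp fragment, was at 0.824% ± 0.230 with 1255 to 5274 reads, although the other rows of that fragment brought its level to 9.55%. The next rows, 39847398 and 39847391 on the plus strand, were at 2.40% ± 6.52 and 3.32% ± 6.92, and rested on 12 to 64 reads.

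The low depth within the 18S gene coincided with matches to it elsewhere in the assembly, of which the longest was on chromosome 6. Shorter matches to the 18S region lay on several chromosomes, among them 338 bp on chromosome 1 (96.7% identity) and 338 bp on chromosome 10 (93.2%). Neither of these 2 had a row covered in all libraries. A stretch of 908 bp on chromosome 6 (3200770 to 3201677, in no annotated gene) matched the 18S region with 98.0% identity. Of the 144 CpG cytosines of the unit in that stretch 36.1% were covered in all libraries, against 80.9% elsewhere in the unit. However, 62 of the 144 lay in 1 MspI fragment of 428 bp, in which 0 were covered in all libraries. Elsewhere in the unit, 0 of 36 were covered in a fragment of 247 bp and 30 of 32 in one of 240 bp. The parts of fragment length and of the match in this contrast were not tested. On chromosome 6, 15 rows were covered in every library with a mean of 1103 to 6898 reads. Wt animals had a level of 15.3% ± 2.19 there (SD, n = 4), Tg animals had 13.3% ± 2.54 (SD, n = 8), and Tg female 1 was the lowest with 9.498%.

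Whether genotype was related to the level of the unit was tested over animals. Wt animals had a mean level of 13.8% ± 2.53 (SD, n = 4) and Tg animals one of 13.8% ± 3.57 (SD, n = 8). The difference was 0.0126 percentage points, with a 95% interval from -4.58 to 4.71 points by inversion of the two-sided exact permutation test (p = 0.998, 495 splits). The groups overlapped, since the Tg range enclosed the Wt range. Leaving out the library labelled Wt male made it -1.12 points (exact permutation test, p = 0.642), and without Tg female 1 it was 0.881 points (exact permutation test, p = 0.618). Differences of several points in either direction are thus not distinguishable with these animals.

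No segment passed the test. Tg minus Wt was 0.0726 points in the spacer (exact permutation test, p = 0.978), -0.444 points in the 18S gene (p = 0.840, exact) and -0.00934 points after it (p = 0.992, exact). Adjusted over the 3 segments, each p was 0.992. By animal means, 477 of the 885 rows were lower and 408 higher in Tg, with a median difference of -0.148 points.

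Pooling the reads of a group gave another picture than averaging animals. With pooled reads, the level was 13.7% in Wt and 12.7% in Tg, and 712 of the 885 rows were lower in Tg. Tg female 1, the animal with the lowest level, contributed 24.4% of all Tg reads in the unit.

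Single sites were tested by the 2 models described below, with reads counted as independent (binomial) or with a dispersion per site (overdispersion). A differentially methylated site (DMS) needed an adjusted p under 0.1 and a pooled difference of at least 10 points. Over all 980547 sites the binomial model called 16871, or 1.72%. In Rn45s it called 9 of 885 rows (1.02%), of which 1 was higher in Tg, where 0.928% of all sites were called higher. Which share was larger turned with the libraries used, since 22 rows (2.49%) were called in the 7 libraries labelled female, against 2.13% of all sites, and 16 rows (1.81%) without the library labelled Wt male, against 1.35%. Without the difference threshold, 403 rows (45.5%) had an adjusted p under 0.1 in the binomial model, against 16.5% of all sites. The overdispersion model called 0 rows in Rn45s and 0 of all sites (0.0%), with a smallest adjusted p of 0.422 in Rn45s. At an unadjusted p under 0.05 it gave 9 rows (1.02%), against 10.9% of all sites, and the binomial model 477 rows (53.9%), against 25.5%. The median dispersion, which is 1 where animals vary by counting error alone, was 38.1 in the Rn45s rows and 1.14 over all sites. Both the dispersion and the binomial p depend on depth, and the unit had 51.3 to 98.97 times the mean autosomal depth. The dispersions and the binomial shares without the difference threshold are therefore not like for like. Within Rn45s, the dispersion was 1.46 at 39847398 on the plus strand (12 to 64 reads) and 72.6 at 39843027 on the minus strand (1975 to 9769 reads). Ranges of Wt and Tg that do not overlap were found in 0 rows, against 0.0709% of all sites.

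The unadjusted count rested on Tg female 1. Without that library, 242 of the 885 rows (27.3%) had an unadjusted p under 0.05 in the overdispersion model, against 9.81% of all sites in the same fit, and 0 passed the adjusted threshold, with a smallest adjusted p of 0.462. The fit contains sex, and this library is labelled female. The fit also counts the library labelled Wt male as male, and no fit without both was run. Rows of the unit moved together, with a median r of 0.912 in the deeper rows, so the 242 rows are not separate observations. Over animals, the difference in level without Tg female 1 was 0.881 points (exact permutation test, p = 0.618). Leaving out the library labelled Wt male gave 19 rows (2.15%), against 7.18% of all sites, and 0 calls.

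**Figure D3:**
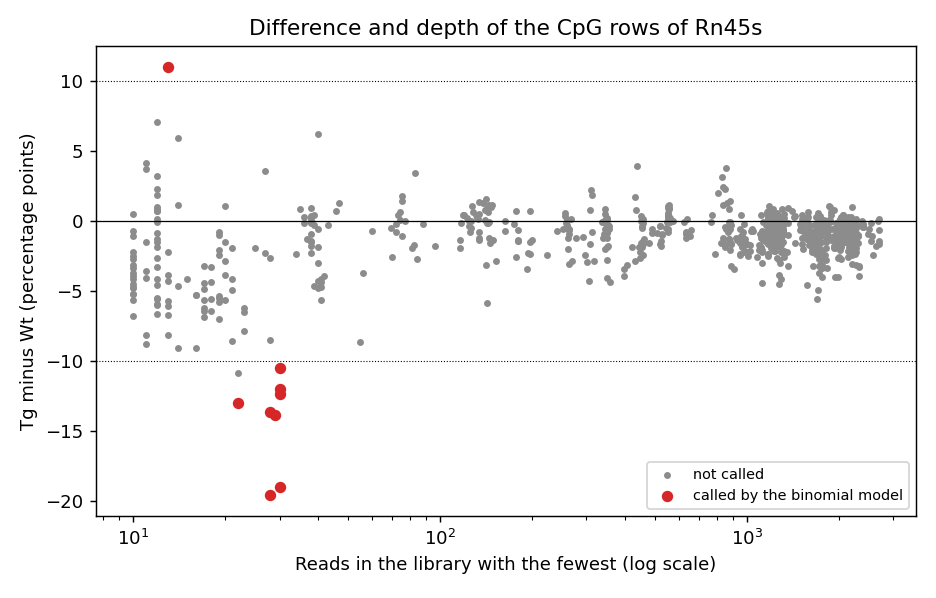
Pooled difference between Tg and Wt in percentage points against the reads in the library with the fewest (log scale), 1 point for each of the 885 rows, with dotted lines at 10 points. The 9 rows called by the binomial model (large points) had 13 to 30 reads in their shallowest library, and the differences narrowed as depth rose.

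All 9 called rows were shallow, with 13 to 128 reads per library, while 502 rows of the unit had at least 1000 in every library. Of the 9, 6 were minus-strand rows of the 79 bp fragment printed above, at its 5 inner CpGs and at the CCGG of its right end, with 28 to 128 reads per library at each. Rows of 1 fragment are read together, so they are 1 observation rather than 6. Over these rows the Wt females had levels of 13.5%, 55.0% and 46.8%, and the library labelled Wt male had 47.2%. In the Tg females it was 10.7, 11.4, 44.9 and 47.2%, and in the Tg males 29.8, 25.6, 16.1 and 38.8%. Animals of both groups were thus found near the bottom and near the top of one wide range. Wt animals averaged 40.7% ± 18.5 (SD, n = 4) and Tg animals 28.1% ± 14.6 (SD, n = 8). This fragment did not follow the unit, with an r of 0.202 over the 12 animals. Tg female 2, the highest animal in the unit, was among the lowest here.

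Among the rows with the lowest difference, 39844975 and 39844948 on the minus strand belong to that fragment, with Tg minus Wt of -17.7 and -15.7 points as animal means. The other, 39845350 on the plus strand, had 34.3% ± 25.2 over Wt animals (SD, n = 4) and 16.6% ± 6.77 over Tg animals (SD, n = 8) and was not called. The largest difference was at 39846022 on the plus strand, with 32.9% ± 12.9 over Wt animals (SD, n = 4) and 48.3% ± 18.5 over Tg animals (SD, n = 8). It was the called row that was higher in Tg, and had 13 to 86 reads per library. It was followed by 39846639 on the minus strand (9.38 points) and 39847463 on the minus strand (9.30 points), neither of which was called. The other 2 called rows, named because they were called and outside the rule for rows, were both lower in Tg. Row 39845330 on the plus strand had 87.4% ± 8.19 over Wt animals (SD, n = 4) and 75.1% ± 9.88 over Tg animals (SD, n = 8), with 30 to 97 reads per library. Row 39848737 on the minus strand had 60.9% ± 8.09 over Wt animals (SD, n = 4) and 50.2% ± 17.4 over Tg animals (SD, n = 8), with 22 to 88 reads.

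By sex labels, the level was 14.8% ± 3.59 (SD, n = 7) in females and 12.4% ± 1.93 (SD, n = 5) in males. The difference of -2.38 points had an interval from -6.06 to 1.61 (exact permutation test, p = 0.216, 792 splits). Leaving out the library labelled Wt male gave -1.87 points (exact permutation test, p = 0.376), and within Tg animals -1.77 points (exact permutation test, p = 0.514). The Tg female group held both the lowest and the highest animal. Without Tg female 1 the difference was -3.56 points (exact permutation test, p = 0.0173), and with that animal it did not pass, so the result rests on 1 library. That comparison still counts the library labelled Wt male as male, which had the lowest level of those labelled male (10.4%). It was not run without both libraries, so whether the sexes differ cannot be told from it.

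The depth of the unit reflects both the number of its copies and how well its fragments entered the library, which cannot be told apart. The 885 rows are 0.0903% of all rows covered in every library, chromosome X included. By another count, all window rows that a library listed held reads equal to 3.13 to 5.43% of its listed autosomal reads. Mean reads per row were 98.97, 51.3 and 62.2 times the autosomal mean for Wt females 1 to 3, and 67.98 times for the library labelled Wt male. In the Tg females the ratio was 80.3, 56.4, 55.8 and 52.4, and in the Tg males 58.5, 57.0, 54.3 and 63.1. The libraries of Wt female 1 and Tg female 1 stood above the other 10, and they also had the highest autosomal mean levels, 6.05 and 5.92%. The part of that in the ratio was not tested.

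The difference between the groups in this ratio was within the spread between animals. Wt animals had 70.1 ± 20.4 (SD, n = 4) and Tg animals 59.7 ± 8.89 (SD, n = 8), which differ by -10.4 with an interval from -28.5 to 5.91 (exact permutation test, p = 0.228). Without Wt female 1 the difference was -0.753 (exact permutation test, p = 0.939). Because libraries differed in fragment lengths, the ratio was also formed within length classes against autosomal rows of the same lengths. Over fragments of 40 to under 160 bp Wt animals had 84.6 ± 24.1 (SD, n = 4) and Tg animals 71.1 ± 10.1 (SD, n = 8; exact permutation test, p = 0.164), with 120 in Wt female 1 and 94.5 in Tg female 1 as the highest again.

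Level and relative coverage were compared across the 12 animals, as 1 of 4 relations (8 p-values adjusted together). Pearson's r was -0.36 (permutation test, p = 0.247, adjusted 0.380) and Spearman's rho -0.60 (permutation test, p = 0.0427, adjusted 0.163), so neither passed after adjustment. Without Wt female 1 and Tg female 1, the animals farthest from the median coverage, r was -0.53 (permutation test, p = 0.117). Without Wt female 1 alone r was -0.74 (permutation test, p = 0.00811), so the value turns on that library. With coverage from fragments of 40 to under 160 bp, r was -0.33 (permutation test, p = 0.285, adjusted 0.380) and rho -0.64 (permutation test, p = 0.0275, adjusted 0.163). Without the same 2 animals r was then -0.56 (permutation test, p = 0.0952).

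No relation of the level to the autosomal mean level was detected, with r of -0.18 (permutation test, p = 0.565, adjusted 0.646) and rho of -0.14 (permutation test, p = 0.669, adjusted 0.669). Without Wt female 1 and Tg female 1, r was 0.26. In so few animals a relation could be missed. With the autosomal mean depth r was -0.52 (permutation test, p = 0.0813, adjusted 0.163) and rho -0.55 (permutation test, p = 0.0713, adjusted 0.163). Without Tg female 4 and Tg male 1, r with depth was -0.71 (permutation test, p = 0.0212).

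**Figure D4:**
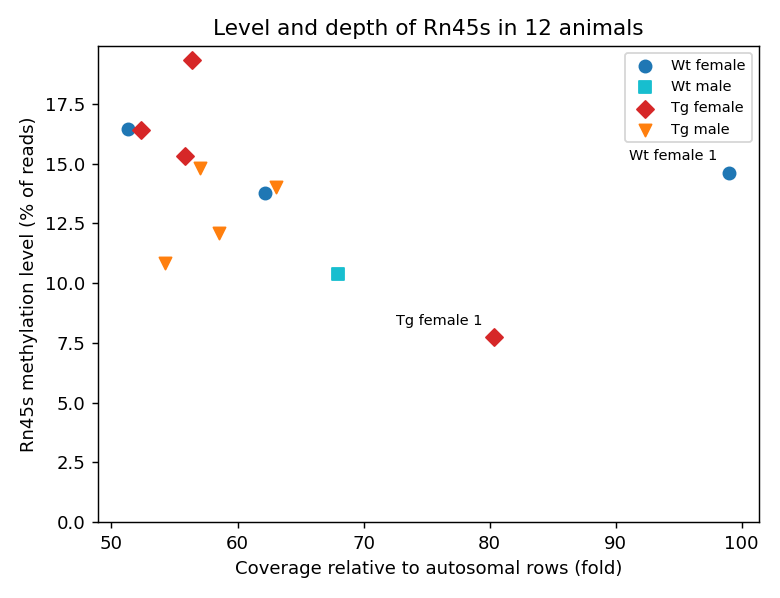
Methylation level of Rn45s in percent of reads against its coverage as a multiple of the autosomal mean, 1 point per animal. Most animals sit between 50 and 70 times, while Wt female 1 at 98.97 and Tg female 1 at 80.3 stand apart, the latter with the lowest level.

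Rows outside the window were then sorted by depth, a comparison chosen after the values had been seen. Only 169 rows of the autosomes and chromosome X outside Rn45s had a mean of at least 1000 reads, against 691 rows within it, and they formed 11 stretches when rows up to 2000 bp apart were joined. In 9 of the 11, with 159 of the rows, the level followed that of Rn45s over the 12 animals, with r from 0.70 to 0.98. These values are given as a description with no test, because the stretches share libraries with Rn45s and were found by their depth.

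The stretch most like the unit lay on chromosome 11 (109011737 to 109011929, in no annotated gene). It had 33 rows with a mean of 4898 reads, and its level was lowest in Tg female 1 (8.40%) and highest in Tg female 2 (19.8%), with r of 0.98. In introns, 7 rows in Arhgap21 on chromosome 2 had r of 0.96, 16 rows in Cdk8 on chromosome 5 had r of 0.93 and 30 rows in Zc3h7a on chromosome 16 had r of 0.92. Cdk8 encodes a kinase of the Mediator complex. Rows in Cmss1 and Filip1l, which overlap on chromosome 16, had r of 0.86, and 5 rows in Taco1 on chromosome 11 had r of 0.85. The chromosome 6 copy of the 18S region described above was among the 9, with r of 0.80, as were stretches in no annotated gene on chromosome 3 (r of 0.79) and chromosome 17 (36231447 to 36231483, r of 0.70). Tg female 1 was the lowest animal in 8 of the 11 stretches.

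The remaining 2 stretches were as deep but did not follow Rn45s. Both lay on chromosome 2, the first in an intron of Gm10801 and the second at 98666385 to 98666504 in no annotated gene, with a mean of 5201 and 25214 reads per row. Their levels were 63.8 to 65.7% and 65.2 to 69.7% over the 12 animals, with r of -0.11 and -0.22. Of these 11 stretches, a match of at least 100 bp to the unit was found for the one on chromosome 6, and whether the others hold parts of the repeat beyond this unit was not tested.

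**Figure D5:**
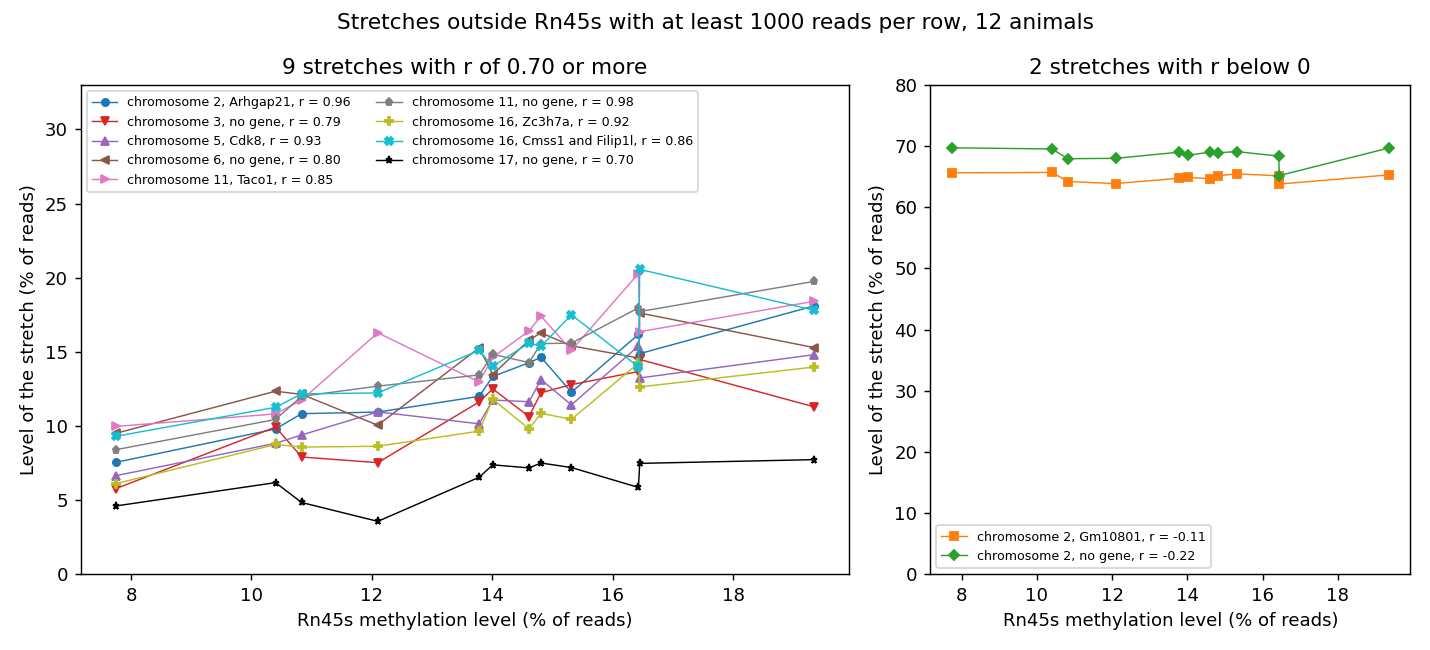
Level of each of the 11 deep stretches outside Rn45s against the level of Rn45s, both in percent of reads, with lines joining the 12 animals. The 9 stretches on the left, at 3.57 to 20.6%, rise with Rn45s, while the 2 on the right stay between 63.8 and 69.7%.

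Gene promoters were ranked by how alike their level was to that of the unit over the 12 animals. Of 3822 promoters with at least 5 rows and an SD of at least 1 point, the median r was 0.0461, 9 were above 0.8 and 4 below -0.8. The first 4 places were held by genes that lie in the unit itself, Gm26917 (r of 0.999), Gm42418 (0.999), AY036118 (0.991) and CT010467.1 (0.990). The fifth was Gm23935 on chromosome 16, annotated as a miRNA, with 32 rows, r of 0.92 and levels of 6.14 to 14.3%. Its reads and levels are nearly those of the 30 rows of the deep stretch in Zc3h7a (6.10 to 14.2%), so it is not a separate match. The sixth, named although it falls outside the first 5, was Taco1 with its antisense gene, which share 74 rows (r of 0.85). Most of their reads are those of the 5 deep Taco1 rows described above, so this is not a separate match either. Taco1 encodes a translational activator of a mitochondrial respiratory complex subunit.

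The promoters of genes that act on the repeat were compared between genotypes, from a list of 44 genes of RNA polymerase I initiation, of silencing and activation of the repeat, and of ribosomal RNA processing. Of these, 40 had at least 3 rows within 1000 bp of a start, and Polr1a, Znrd1, Nop58 and Dkc1 did not. Most were nearly free of methylation, with a median level of 0.820%, and 36 were under 5%. Tg minus Wt was above 0 in 20 and below 0 in 20, with a median of -0.0274 points, against 0.0136 points over all 16480 promoters. The overdispersion model called 0 of the 40, and 0 of all promoters (0.0%), with 2 of the 40 at an unadjusted p under 0.05, against 6.01% of all promoters. The binomial model called 1 of the 40, against 151 of all promoters (0.916%).

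The called promoter was that of Suv39h1, an X-linked gene for a histone H3 lysine 9 methyltransferase. Wt animals had 22.0% ± 3.84 (SD, n = 4) there and Tg animals 10.1% ± 10.4 (SD, n = 8), with a pooled difference of -11.3 points and an adjusted p of 0.890 in the overdispersion model. All 4 Wt libraries had X and Y read counts like those of females, whereas 4 of the 8 Tg libraries did not, and sex by label was in the fit. In the 7 libraries labelled female, Suv39h1 was not called, with 20.6% ± 3.18 over Wt animals (SD, n = 3), 19.1% ± 5.83 over Tg animals (SD, n = 4) and a pooled difference of -1.58 points. The call was also lost without Tg male 2 (-9.81 points) or Tg male 3 (-9.73 points). Without the library labelled Wt male it stayed, at -10.2 points. Its adjusted p in the binomial model was then 0.0370, against 4.31e-61 with all 12 libraries. Phf8, an X-linked histone demethylase gene, had the next largest pooled difference, -3.62 points, with 13.4% ± 5.05 over Wt animals (SD, n = 4) and 10.7% ± 13.1 over Tg animals (SD, n = 8). The largest autosomal pooled differences were at Taf1b, a subunit of the selectivity factor of RNA polymerase I, at -1.93 points, Smarca5, the ATPase of the nucleolar remodelling complex, at 1.62 points, and Ddx21, a nucleolar RNA helicase, at -1.19 points. None of these was called by either model.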

How the data were processed

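Per the labels and the study's methods, a commercial service made the RRBS libraries and sequenced both read ends (Illumina HiSeq 2000). Reads were aligned to mm10 with Bismark and read into methylKit, with versions not given in the sources used here. The study's methylKit settings kept the strands apart, had sex as a covariate and selected sites at a difference of at least 10 points and a q-value of at most 0.1. The deposited values are read counts per CpG cytosine and strand (coverage, methylated, converted), which the authors gave in 1 file per animal, without pooling. Each file lists rows with at least 10 reads. Fewer reads were not analysed here.

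From these counts, the autosomal and chromosome X rows of the 12 libraries were matched by position and strand, leaving out 11 positions listed more than once. In 1 row the coverage differed from the sum of its counts, and the sum was used. The level of the unit was methylated reads over all reads at rows present in all 12 libraries. Relative coverage was the mean coverage of these rows over that of autosomal rows. Group differences of such values were tested by two-sided exact permutation tests over animals, and correlations with 100000 permutations. Sites and promoters (1000 bp either side of a start, at least 3 rows) were tested across the genome by logistic regression with terms for genotype and sex and a likelihood-ratio test (binomial model), or with that deviance divided by a dispersion of at least 1 (overdispersion model, F test), adjusted by the Benjamini-Hochberg method. The binomial model stands in for methylKit, which was not run. At like thresholds it called many more sites over the genome than the study reported, so its calls are not those of the study. The reason was not tested. Both were tested on simulated data of 20000 sites with animals varying beyond counting, of which 200 were shifted by 30 points. Binomial calls took in 99.0% of those 200, along with 215 unshifted sites. For the overdispersion model these figures were 79.0% and 3. The largest differences of Rn45s rows, as animal means, were 15.4 and -17.7 points, and 980547 sites were fitted. The simulated shares therefore do not give the recovery of differences of that size. No simulation was limited to rows as deep as those of Rn45s.

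MspI fragments were predicted from CCGG in the GRCm38.p6 sequence, and copies of the unit were sought with BLAST 2.17.0 (at least 100 bp and 85% identity). Scripts used Python 3.11.15, NumPy 2.4.6 and SciPy 1.17.1. The rows named were the 3 highest and 3 lowest by level, the 3 with the largest and the 3 with the smallest difference, and those with ranges that do not overlap between groups (0 rows). Other called rows were named after their values were seen. Promoters named were the 5 most alike and, of the list, the 5 with the largest difference. The unit, the list and the tests were chosen with earlier results of these data known. The labels name separate animals, numbered here in the order of the records.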

Additional observations from a re-analysis of the deposited data

Results flagged for a closer look

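Of 28 groups of 4 to 8 samples compared by Dixon's test, 5 had an animal that stood apart, where chance gives about 1 in 20, or 1.4 in all. In each of the 5 it was Tg female 1, which was in 14 of the 28. The groups overlap and share that animal, so the flags are not independent. Its relative coverage of Rn45s was 80.3, against 63.1 in the nearest of the 8 Tg animals and 56.4 in the nearest of the 4 Tg females. In fragments of 40 to under 160 bp it was 94.5, against 75.1 and 67.3. Its level in the chromosome 6 copy of the 18S region was 9.498%, against 14.6% in the nearest Tg female. Its level in the unit itself, 7.74%, did not pass that test within Tg.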

How the results depend on the processing

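The difference in level between genotypes was so near 0 that its sign turned with the setting: -0.238 points in the 7 libraries labelled female, -0.0154 with all rows of each library, -0.773 with the unweighted mean of rows, -0.127 on the plus strand and -0.0101 without CpGs inside CCGG. Leaving out 1 animal gave -1.12 to 0.892. In the spacer it was -0.114 in the libraries labelled female and -0.790 unweighted, with -1.04 to 0.974 when 1 animal was left out, against -1.78 to 0.919 in the 18S gene and -1.12 to 1.10 after it. None of these alternatives passed the exact permutation test. Relative coverage stayed lower in Tg in 21 of 22 alternatives, with -16.6 to -0.753 when 1 animal was left out, and was 0.376 higher in Tg in fragments of 220 to under 400 bp, a class added after seeing the data in which 454 autosomal rows formed the base. The difference between sexes ran from -3.56 to -1.62 when 1 animal was left out. It passed the test only without Tg female 1, with the library labelled Wt male still counted as male. For level against relative coverage, Spearman's rho of -0.60 passed unadjusted where Pearson's r did not, and r was -0.74 to -0.17 with 1 animal left out. The binomial model called 22 rows in the libraries labelled female (2.49%, against 2.13% of all sites), 42 at a difference of 5 points and 4 to 16 with 1 animal left out. Of these, 4 came without Wt female 2 (0.452%, against 1.88% of all sites) and 5 without Tg female 1 (0.565 against 1.59%). Without the library labelled Wt male there were 16 (1.81 against 1.35%). Called rows were also a larger share in Rn45s than over all sites at a difference of 5 points (4.75 against 3.68%) and at 20 reads (0.998 against 0.474%). Of the listed promoters it called 0 in the libraries labelled female, 0 at 20 reads and 0 to 1 with 1 animal left out. The overdispersion model called 0 under every alternative run for rows and promoters. Causes of these changes were not tested. No paired analysis was possible because the labels give no replicate numbers. Depth limits the 162 rows with fewer than 100 reads in some library, while the number of animals limits the level of the unit. Reads that fit several copies cannot be placed, and the share of such reads is not known from these files.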

Other observations

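Both strands of a CpG were covered in all libraries at 422 CpGs of the unit. Their levels, as means over the 12 animals, differed by a median of 1.94 percentage points, and by over 10 points at 32 CpGs. At the 324 CpGs with at least 100 reads on both strands in every library, the levels of the strands had a Pearson's r of 0.710 across CpGs, which are not independent. Rows inside CCGG had a pooled level of 14.1% and the other rows 13.0%.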
